A study of Sus scrofa with 6 samples.

Results

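Antioxidant enzymes and the transcription factor NRF2 were followed in the back muscle of Tibetan pigs. The set was named by symbol as CAT, SOD1, SOD2, GPX1, GPX4, PRDX1, PRDX3, TXN2, NFE2L2 and NQO1. It was chosen with earlier results of these data known. A member was any row of the table whose Ensembl pig gene ID carries a symbol of the set. Rows were found for 8 of the 10, among 25322 genes in the table. SOD2 and GPX1 matched no row by this rule and are not analysed here. All 8 passed the filter on low values, which asked for 1 FPKM or more in 3 or more libraries and kept 10005 genes.

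Respiration and other oxidases leak superoxide, which superoxide dismutases turn into hydrogen peroxide. Catalase, glutathione peroxidases and peroxiredoxins then break down the peroxide, with electrons for the last of these groups coming from thioredoxins. NRF2, the product of NFE2L2, is held back by KEAP1 and, once released, pairs with small MAF proteins to switch on genes of defence such as NQO1. Contracting muscle produces these oxidants continuously, and oxygen supply and activity both alter how much it makes.

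The muscle was longissimus dorsi, taken from healthy female Tibetan pigs. The low altitude group was 3 animals held under experimental conditions with daily feeding on the Chengdu plain, at an average of 500 m, from a line bred in the lowland for several generations. The high altitude group was made up of 3 animals that ranged freely in the Tibetan highland, at an average of 4000 m. Age is not given in the labels, and altitude, feeding, place and breeding history differed together, so they cannot be told apart. Each library was strand-specific RNA-seq of 1 animal, with values in FPKM, which divides fragments by gene length and by the library's mapped fragments.

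FPKM totals ran from 506611 to 566907 in the low altitude libraries and from 526368 to 571855 in the high altitude libraries. FPKM holds no read counts, so the depth of each library is not known. From the steps between low values, relative depth was 0.911 to 0.983 at low and 0.862 to 1.19 at high altitude. Muscle fibre markers were high in every library, with a mean log2(FPKM + 1) of 11.50 to 11.62 at low and 11.40 to 11.62 at high altitude over the 6 of 13 markers that have a row. High altitude library 1 stood apart: its slow fibre markers (5 of 11 with a row) averaged 10.92, against 8.18 and 10.18 in the rest of its group and 8.81 to 9.33 at low altitude. Its fibroblast and matrix markers (8 of 10 with a row) averaged 3.54, against 4.66 to 5.41 in the other 5 libraries. In whole muscle, fewer cells of a type and less RNA per cell cannot be told apart.

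The main question was whether transcripts for oxidant defence differ between lowland and highland animals. None of the 8 genes passed the test, although CAT and NFE2L2 had the largest estimates toward low altitude. CAT averaged 84.0 ± 21.9 FPKM at low and 57.7 ± 7.25 at high altitude (SD, n = 3 each), a ratio of 1.46. NFE2L2 averaged 20.2 ± 1.68 FPKM at low and 15.8 ± 2.31 at high altitude, a ratio of 1.28, and was the only member whose groups did not overlap. GPX4 and PRDX1 had the lowest ratios, 0.840 and 0.861. In limma with Benjamini-Hochberg adjustment 0 of 8 members passed an adjusted p of 0.05, where 0.23% of all 10005 tested genes passed (23 genes). At an unadjusted p under 0.05 the count was 1 of 8, against 9.42% of all tested genes, and 1 of 8 had groups that did not overlap, against 16.1%.

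**Figure D1:**
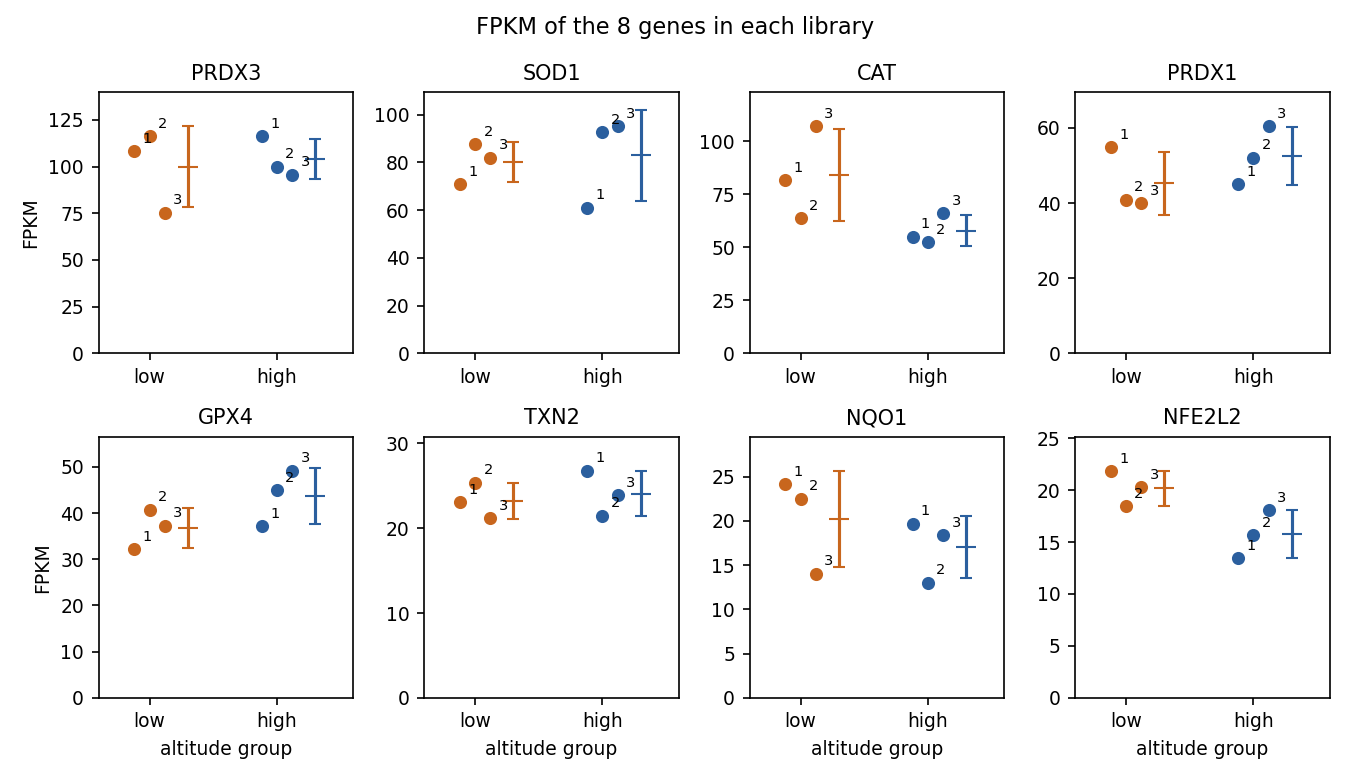
FPKM (vertical axis, from 0) of each gene in the 3 low altitude and 3 high altitude libraries; points carry the library number, and bars give the mean and SD of each group (n = 3). NFE2L2 has every low altitude point above every high altitude point, while the other 7 genes overlap between groups.

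By level, the 8 genes spanned a range from PRDX3, at a mean of 102 FPKM over both groups, to NFE2L2, at 18.0. PRDX3 ranked 391 of the 10005 tested genes by mean FPKM, and NFE2L2 ranked 1833. Between them came SOD1 (81.5), CAT (70.9), PRDX1 (48.9), GPX4 (40.3), TXN2 (23.6) and NQO1 (18.6). PRDX3 was above SOD1 in 5 of 6 libraries and SOD1 above CAT in 4 of 6, with ranges that overlapped. CAT lay above PRDX1, PRDX1 above GPX4 and GPX4 above TXN2 in each of the 6 libraries, and of these pairs only GPX4 and TXN2 had ranges apart. TXN2 was above NQO1 in 5 of 6 libraries and NQO1 above NFE2L2 in 4 of 6, so the lowest 3 were not ordered beyond their spread. SOD1 was above CAT in all 3 high altitude libraries and in 1 of 3 low altitude libraries.

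NFE2L2 (ENSSSCG00000015987), the gene of NRF2 itself, was at 21.8, 18.5 and 20.3 FPKM in low altitude libraries 1, 2 and 3, against 13.5, 15.7 and 18.1 in high altitude libraries 1, 2 and 3. The lowest low altitude value lay just above the highest high altitude value. Its log2 fold change, low minus high altitude on the log2(FPKM + 1) scale, was 0.35 (SE 0.16, 95% interval −0.02 to 0.71, limma with Benjamini-Hochberg adjusted p = 0.552). A gene placed higher at low altitude with no overlap is common here: 11.3% of all tested genes do so, and 4.8% lie the other way.

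NQO1 (ENSSSCG00000002754), a quinone reductase and a standard readout of NRF2 activity, was at 24.2, 22.5 and 14.0 FPKM in the low altitude libraries, against 19.7, 13.0 and 18.4 in the high altitude libraries. Low altitude libraries 1 and 2 were the highest of the 6, whereas low altitude library 3 lay among the high altitude values. The log2 fold change was 0.22 (SE 0.25, 95% interval −0.36 to 0.81, limma with Benjamini-Hochberg adjusted p = 0.826). It was 0.45 without low altitude library 3 and 0.05 without high altitude library 2. NQO1 had the widest interval of the 8 genes and the largest spread at low altitude, a coefficient of variation of 26.9%, against 20.7% at high altitude. Low altitude library 3 was the second highest of the 6 for NFE2L2 and the second lowest for NQO1.

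Among enzymes that act on superoxide and peroxide, catalase had the largest estimate. CAT (ENSSSCG00000013302), the peroxisomal enzyme that splits hydrogen peroxide into water and oxygen, was at 81.5, 63.6 and 107 FPKM in the low altitude libraries, against 55.0, 52.2 and 65.9 in the high altitude libraries. Low altitude library 3 had the highest value and low altitude library 2 lay below high altitude library 3, so the groups overlapped. The log2 fold change was 0.51 (SE 0.22, 95% interval 0.002 to 1.02, unadjusted p = 0.0494, limma with Benjamini-Hochberg adjusted p = 0.525). Without low altitude library 3 it was 0.32 (limma, Benjamini-Hochberg adjusted p = 0.913; 0.352 to 0.913 over all 17 alternatives). In that library CAT was the most abundant of the 8 genes, above SOD1 at 81.9 and PRDX3 at 75.2 FPKM.

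Red blood cells are rich in catalase and macrophages both make and remove oxidants, so markers of both were read beside it. Erythroid markers (7 of 10 with a row) averaged 0.97 to 1.29 on the log2(FPKM + 1) scale at low and 0.98 to 1.62 at high altitude, with 2 to 5 of the 7 at 0 in a library. KLF1 was listed at 0 in all 6 libraries. The globin HBB was at 115, 57.0 and 60.6 FPKM in the low altitude libraries, against 56.4, 81.4 and 160 in the high altitude libraries, with low altitude library 3 among the lower values. Macrophage markers (8 of 12 with a row) averaged 2.29, 2.39 and 3.02 in the low altitude libraries, against 2.48 to 2.64 in the high altitude libraries, and at most 1 was at 0. Low altitude library 3 was therefore the highest of the 6 for both CAT and macrophage markers. Low altitude library 1 was the lowest of the 6 for macrophage markers and the second highest for CAT. The part of these cells in the CAT values was not tested.

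SOD1 (ENSSSCG00000021355), the cytosolic copper and zinc superoxide dismutase, was at 70.9, 87.6 and 81.9 FPKM in the low altitude libraries, against 61.0, 92.6 and 95.2 in the high altitude libraries. High altitude library 1, the library with the highest slow fibre level, was the lowest of the 6. High altitude libraries 2 and 3 were the highest, so the groups overlapped only through high altitude library 1. The log2 fold change was −0.03 (SE 0.21, 95% interval −0.51 to 0.46, limma with Benjamini-Hochberg adjusted p = 0.982). Without high altitude library 1 the SOD1 estimate was −0.23, and without high altitude library 3 it was 0.09. Its sign was also the opposite of the main fit when every library was scaled to the same total.

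GPX4 (ENSSSCG00000024052), the selenium enzyme that reduces lipid peroxides in membranes, was at 32.2, 40.8 and 37.3 FPKM in the low altitude libraries, against 37.2, 44.9 and 49.2 in the high altitude libraries. High altitude libraries 2 and 3 were the highest, and high altitude library 1 lay among the low altitude values. The log2 fold change was −0.24 (SE 0.17, 95% interval −0.64 to 0.15, limma with Benjamini-Hochberg adjusted p = 0.696). PRDX1 (ENSSSCG00000003914), a cytosolic peroxiredoxin, was at 54.9, 40.9 and 40.0 FPKM in the low altitude libraries, against 45.1, 52.1 and 60.5 in the high altitude libraries. Low altitude libraries 2 and 3 were the lowest of the 6, while only high altitude library 3 lay above low altitude library 1. The log2 fold change was −0.22 (SE 0.19, 95% interval −0.66 to 0.22, limma with Benjamini-Hochberg adjusted p = 0.757). It was −0.36 without low altitude library 1 and −0.11 without high altitude library 3. How reads were divided between PRDX1 and close copies is not stated, so its level is uncertain.

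The pair that acts inside mitochondria differed little in mean. PRDX3 (ENSSSCG00000010682), the mitochondrial peroxiredoxin, was at 108, 116 and 75.2 FPKM in the low altitude libraries, against 116, 99.99 and 95.7 in the high altitude libraries. Low altitude library 3 was the lowest of the 6, and the other 5 lay within the same range. TXN2 (ENSSSCG00000000144), the mitochondrial thioredoxin that reduces PRDX3, was at 23.1, 25.4 and 21.2 FPKM in the low altitude libraries, against 26.8, 21.5 and 23.9 in the high altitude libraries. TXN2 had a coefficient of variation of 9.07% at low altitude, the smallest among the 7 enzymes, and 11.01% at high altitude. The log2 fold changes were −0.08 for PRDX3 (95% interval −0.55 to 0.39) and −0.05 for TXN2 (95% interval −0.40 to 0.30), with Benjamini-Hochberg adjusted p from limma of 0.937 and 0.947. The TXN2 estimate changed sign when every library was scaled to the same total, and that of PRDX3 came to −0.001.

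The nuclear respiratory chain (17 of 22 listed subunits with a row, none at 0) averaged 6.70, 7.09 and 6.51 on the log2(FPKM + 1) scale in low altitude libraries 1, 2 and 3, against 7.46, 7.05 and 6.90 in the high altitude libraries. All 17 subunits had estimates below 0, with a median log2 fold change of −0.39, and 0 of 17 passed the test in limma with Benjamini-Hochberg adjustment (1 at an unadjusted p under 0.05). Slow fibre markers had estimates on the same side, with all 5 tested markers below 0 and a median log2 fold change of −0.74, and in limma with Benjamini-Hochberg adjustment 0 of 5 passed (1 at an unadjusted p under 0.05). The slow fibre mean ranged from 8.81 to 9.33 at low and from 8.18 to 10.92 at high altitude. Of all tested genes, 57.6% had estimates above 0. In limma with Benjamini-Hochberg adjustment 0.23% of all tested genes passed, and 9.42% had an unadjusted p under 0.05. Low altitude library 3, the lowest of the 6 for the respiratory chain, was also the lowest for PRDX3 and TXN2. High altitude library 1 was the highest for the respiratory chain, PRDX3 and TXN2. Some margins were small. The highest PRDX3 value was 116.4 FPKM, against 116.2 in low altitude library 2. The lowest TXN2 value was 21.2 FPKM, against 21.5 in high altitude library 2. The part of mitochondrial content and fibre type in the PRDX3 and TXN2 values was not tested.

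**Figure D2:**
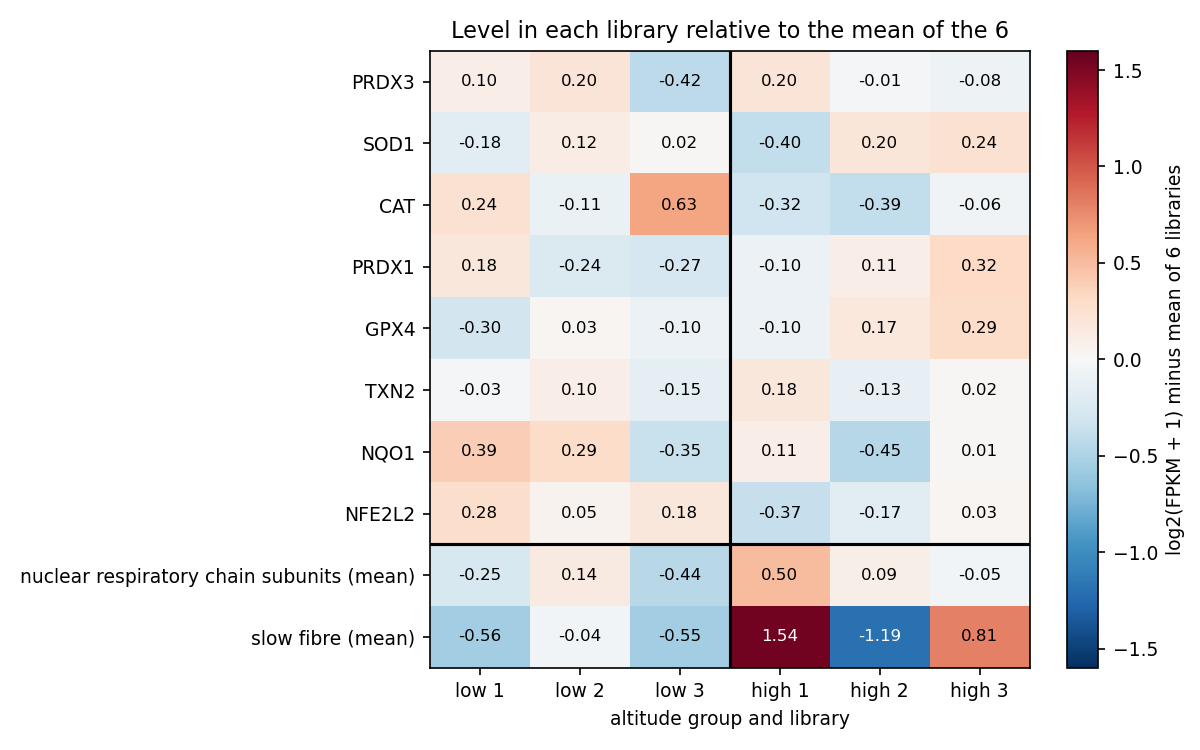
Level of each gene in each library as log2(FPKM + 1) minus the mean of the 6 libraries (rows, genes by falling mean level; columns, low altitude libraries left of the line and high altitude libraries right of it), with the mean of 2 marker lists below. Low altitude library 3 holds both the highest CAT value (0.63) and the lowest PRDX3 value (−0.42), and the slow fibre mean of high altitude library 1 is 1.54.

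Read together, the estimates of the 8 genes were spread on both sides of 0. Estimates were above 0 for 3 of the 8 genes (CAT, NFE2L2 and NQO1), against 57.6% of all tested genes, and the median log2 fold change was −0.04, against 0.04 over all tested genes. When every library was scaled to the same total, 5 of 8 were above 0, with SOD1 and TXN2 among them. The median over all tested genes was then 0.10. After median-of-ratios scaling and quantile normalization 3 of 8 were above 0, with medians of the 8 genes of −0.092 and −0.091. The 95% intervals, unadjusted for the number of genes, reached at most a log2 fold change of 1.02 upward (CAT) and −0.66 downward (PRDX1). A 2-fold difference, a log2 of 1, thus lay outside the interval of each of the 8 genes except CAT. For TXN2 the interval was the narrowest, and for NQO1 the widest.

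**Figure D3:**
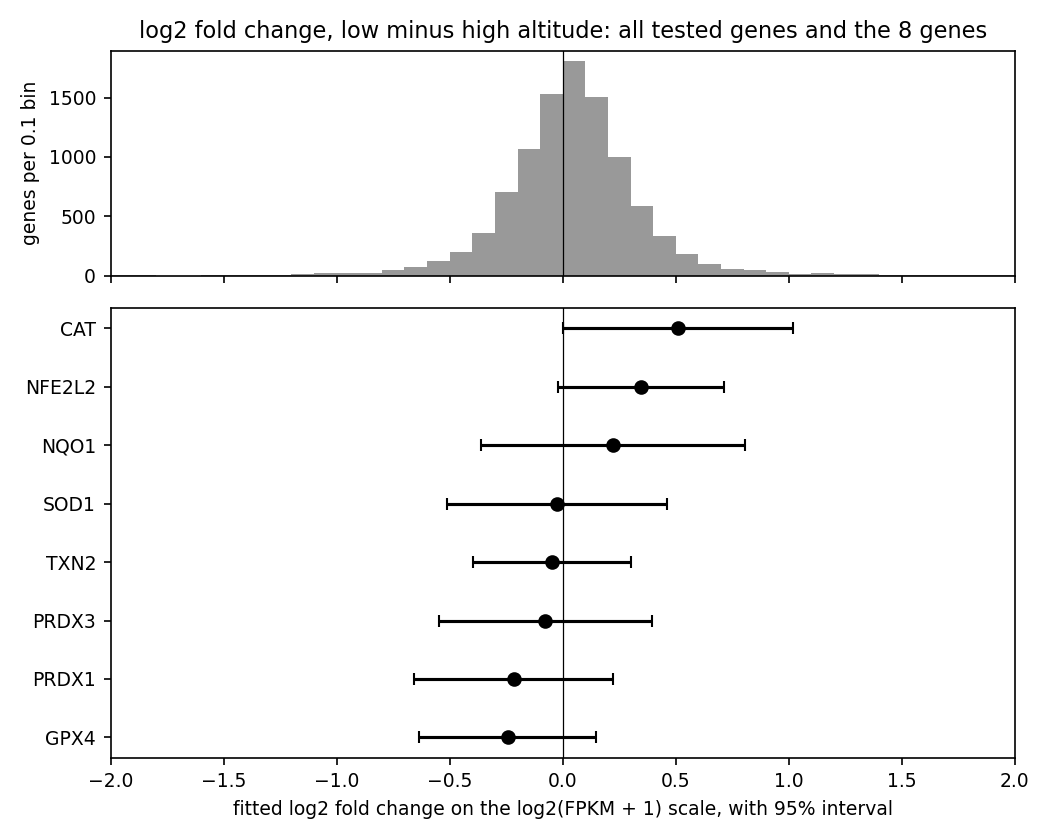
Top, number of tested genes (vertical axis) per 0.1 of log2 fold change, low minus high altitude, on the log2(FPKM + 1) scale, drawn from −2 to 2. Bottom, the estimate and 95% interval (limma, unadjusted) of the 8 genes on the same axis; the interval of CAT starts at 0.002 and those of the other 7 include 0.

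By closeness of profile over the 6 libraries, NFE2L2 was most like ZFYVE1, IFT57 and ANKRD13B among tested genes with a symbol. The root mean square differences of their mean-centred log2(FPKM + 1) values from NFE2L2 were 0.0321, 0.0336 and 0.0435. ZFYVE1 was at 4.36, 3.68 and 4.13 FPKM in the low altitude libraries, against 2.40, 3.17 and 3.70 in the high altitude libraries, the same order of libraries within each group as NFE2L2. CAT was most like CCNL1, IL6R and ADAR, at 0.0744, 0.0994 and 0.112. CCNL1, a cyclin of RNA processing, was at 15.3, 11.3 and 17.5 FPKM in the low altitude libraries, against 9.07, 8.51 and 10.6 in the high altitude libraries. Close profiles among 10005 genes over 6 libraries are a description only.

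The wider pathway was read through 8 lists with 130 different symbols, of which 91 have a row and 76 were tested. In limma with Benjamini-Hochberg adjustment 0 of the 76 passed in either direction, against 0.16% higher and 0.07% lower at low altitude among all tested genes. At an unadjusted p under 0.05 there were 10 of the 76, against 9.42% of all tested genes. The groups did not overlap in 6 that were higher and 3 that were lower at low altitude, against 11.3% and 4.8% of all tested genes. Estimates were above 0 in 38 of the 76, against 57.6% of all tested genes, and the median log2 fold change was 0.001. These shares over all tested genes are the background for each list below.

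The regulators of NRF2 held the largest estimate of the whole pathway. Of 10 tested genes of NRF2 control, 7 had estimates above 0, against 57.6% of all tested genes. The median log2 fold change of the 10 was 0.28. In 4 the low altitude values all lay above the high altitude values, as in 11.3% of all tested genes. Genes that act against NRF2 are in the list too. Of these, BACH1 and CUL3 had estimates above 0 (0.37 and 0.19), and FYN, GSK3B and BTRC below 0 (−0.19, −0.02 and −0.02). MAFF, a small MAF protein that can pair with NRF2, was at 9.81, 8.30 and 23.6 FPKM in the low altitude libraries, against 3.70, 2.66 and 2.68 in the high altitude libraries. Every low altitude library was above every high altitude library, with low altitude library 3 far above the others. The log2 fold change of MAFF was 1.76 (SE 0.36, unadjusted p = 0.00156, limma with Benjamini-Hochberg adjusted p = 0.183), and it did not pass under any of the 17 alternatives (0.0664 to 0.378).

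SQSTM1, the autophagy receptor p62 that binds KEAP1, was at 175, 171 and 234 FPKM in the low altitude libraries, against 128, 145 and 135 in the high altitude libraries. CREBBP, an acetyltransferase that acts as a coactivator of NRF2, was at 5.28, 5.29 and 6.47 FPKM in the low altitude libraries, against 3.50, 4.15 and 4.17 in the high altitude libraries. Both had groups apart, with log2 fold changes of 0.49 and 0.43, and neither passed (adjusted p = 0.431 for SQSTM1 and 0.398 for CREBBP, limma with Benjamini-Hochberg adjustment). With NFE2L2 and MAFF these are the 4 of 10 genes counted above. KEAP1 was listed at 0 to 0.0507 FPKM at low and 0.0304 to 0.0577 at high altitude, so it was not tested, and it was named after its values were seen. Whether the KEAP1 row captures the reads of that gene was not tested.

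Targets of NRF2 lay on both sides of 0. Of 16 tested targets 6 had estimates above 0, against 57.6% of all tested genes, and 10 below. The median log2 fold change was −0.13. In limma with Benjamini-Hochberg adjustment 0 passed, against 0.23% of all tested genes. There were 0 at an unadjusted p under 0.05 and 0 with groups apart, against 9.42% and 16.1% of all tested genes. These counts hold for the list as drawn, and SQSTM1, counted with NRF2 control above, is not in it. BLVRB, biliverdin reductase B, averaged 3.56 ± 0.846 FPKM at low and 4.76 ± 0.970 at high altitude. GSR, which regenerates glutathione, averaged 2.15 ± 0.754 FPKM at low and 1.45 ± 0.333 at high altitude. SRXN1, which repairs overoxidised peroxiredoxins, was listed at 0 in all 6 libraries, and SLC7A11, the cystine carrier, did not pass the filter on low values. Whether the SRXN1 row captures the reads of that gene was not tested.

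Of 13 tested genes that remove superoxide and peroxide, 4 had estimates above 0, and the median log2 fold change was −0.08. PRDX4, the peroxiredoxin of the endoplasmic reticulum, was at 40.8, 40.8 and 39.2 FPKM in the low altitude libraries, against 47.7, 59.3 and 48.0 in the high altitude libraries, and was the only one with groups apart. Its log2 fold change was −0.35 (SE 0.15, unadjusted p = 0.0484, limma with Benjamini-Hochberg adjusted p = 0.522). PRDX2, a cytosolic peroxiredoxin abundant in red blood cells, averaged 154 ± 22.9 FPKM at low and 175 ± 19.2 at high altitude, above each of the 8 genes followed here. CCS, which loads copper into SOD1, averaged 15.1 ± 3.71 FPKM at low and 13.1 ± 2.31 at high altitude.

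In thioredoxin and methionine sulfoxide repair, 4 of 10 tested genes had estimates above 0, and the methionine sulfoxide reductases lay on both sides of 0. MSRB3 averaged 2.41 ± 0.399 FPKM at low and 3.42 ± 0.327 at high altitude, with groups apart (log2 fold change −0.38, limma with Benjamini-Hochberg adjusted p = 0.478). MSRA averaged 2.78 ± 0.704 and MSRB2 3.57 ± 1.28 FPKM at low altitude, against 2.13 ± 0.666 and 2.71 ± 0.925 at high altitude. In glutathione synthesis and transfer, 6 of 9 tested genes had estimates above 0. MGST3, a membrane glutathione transferase and peroxidase, was at 21.3, 28.4 and 27.8 FPKM in the low altitude libraries, against 52.7, 29.2 and 41.2 in the high altitude libraries. The gap between the groups was small, at 28.4 against 29.2, and the log2 fold change was −0.62 (SE 0.24, limma with Benjamini-Hochberg adjusted p = 0.481). GSS, which completes glutathione, averaged 2.23 ± 0.320 FPKM at low and 1.79 ± 0.335 at high altitude.

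**Figure D4:**
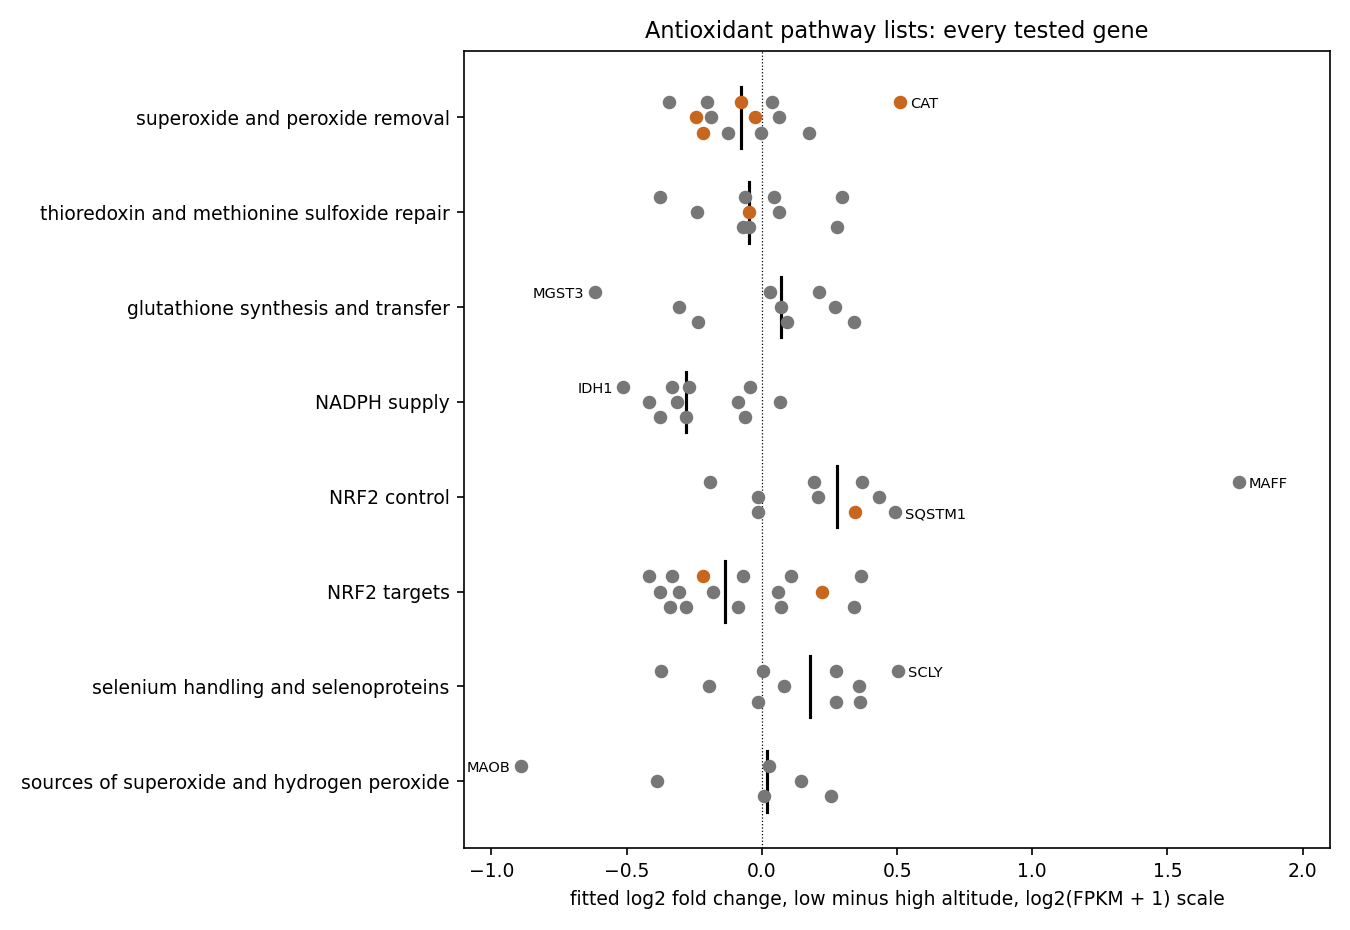
Log2 fold change, low minus high altitude on the log2(FPKM + 1) scale (horizontal axis), of every tested gene in the 8 pathway lists (rows); orange points are the 8 genes followed here, grey points the others, and black bars the median of each list. Genes beyond 0.45 in size are labelled, and MAFF lies farthest out at 1.76; a gene can stand in more than 1 list.

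Genes that supply NADPH, the reducing power of both the glutathione and the thioredoxin systems, had estimates below 0 in 10 of 11 cases, with a median log2 fold change of −0.28. Of all tested genes, 57.6% had estimates above 0. In limma with Benjamini-Hochberg adjustment 0 of 11 passed, against 0.23% of all tested genes. At an unadjusted p under 0.05 there were 0, against 9.42%, and 0 had groups apart, against 16.1%. IDH1, the cytosolic isocitrate dehydrogenase, was at 6.92, 6.60 and 4.70 FPKM in the low altitude libraries, against 6.03, 8.91 and 13.3 in the high altitude libraries. ME1, the malic enzyme, averaged 6.63 ± 1.52 FPKM at low and 9.08 ± 2.93 at high altitude. The list averaged 3.27 to 3.57 on the log2(FPKM + 1) scale at low and 3.33 to 3.86 at high altitude. Adipocyte markers (4 of 9 with a row, none at 0) averaged 3.40, 3.86 and 4.06 in low altitude libraries 1, 2 and 3, against 3.21, 4.31 and 4.58 in the high altitude libraries. High altitude library 1 was the lowest of its group for both lists and high altitude library 3 the highest. Low altitude library 1 was also the lowest of its group for both lists. The highest of that group differed, with library 2 for the NADPH list and library 3 for adipocyte markers. The part of adipocytes in the NADPH genes was not tested.

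GPX4 depends on selenium handling for its active site. The list read here joins selenium handling genes with other selenoproteins. Of its 10 tested genes 7 had estimates above 0, against 57.6% of all tested genes, and the median log2 fold change was 0.18. SCLY, which frees selenium from selenocysteine, was at 4.91, 4.42 and 6.42 FPKM in the low altitude libraries, against 4.02, 2.89 and 3.27 in the high altitude libraries. SECISBP2, which lets ribosomes insert selenocysteine, was at 5.77, 5.45 and 6.10 FPKM in the low altitude libraries, against 4.69, 4.07 and 4.05 in the high altitude libraries. Both had groups apart, with log2 fold changes of 0.50 and 0.36, and neither passed (adjusted p = 0.431 for SCLY and 0.434 for SECISBP2, limma with Benjamini-Hochberg adjustment). EEFSEC, the elongation factor for selenocysteine, averaged 1.48 ± 0.448 FPKM at low and 2.199 ± 0.525 at high altitude. Estimates for these genes thus lay on the opposite side of 0 from GPX4 for SCLY and SECISBP2 and on the same side for EEFSEC.

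Of 6 tested sources of superoxide and hydrogen peroxide, 4 had estimates above 0. MAOB, a monoamine oxidase of the outer mitochondrial membrane, was at 3.06, 7.91 and 3.49 FPKM in the low altitude libraries, against 11.8, 10.2 and 6.22 in the high altitude libraries. Low altitude library 2 lay above high altitude library 3, so the groups overlapped, and the log2 fold change was −0.89 (SE 0.35, limma with Benjamini-Hochberg adjusted p = 0.484). RAC2, a subunit of the phagocyte oxidase, averaged 2.16 ± 1.07 FPKM at low and 2.99 ± 0.246 at high altitude. NOX4, an oxidase that makes hydrogen peroxide, averaged 2.38 ± 0.118 FPKM at low and 1.87 ± 0.5996 at high altitude.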

How the data were processed

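RNA of longissimus dorsi was measured in 6 pigs, 3 per group, 1 library each; columns were matched to animals by title. Per the labels' protocols, libraries were strand-specific (dUTP). The authors deposited FPKM values for 25322 Ensembl gene IDs; TopHat2 2.0.11 and Cufflinks 2.2.1 stand in the submitters' processing notes without a stated role. The genome build is not given in the sources used here, and coordinates are therefore left out. A table of IDs and names gave the symbols (11804 IDs matched, 6719 of 10005 tested).

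Values were analysed as log2(FPKM + 1) with limma 3.58.1 in R 4.3.3, low minus high altitude, with trend, two-sided, Benjamini-Hochberg adjusted over all genes at 1 FPKM or more in 3 or more libraries. No count model was used. Ratios printed are of mean FPKM. From each list up to 3 genes were named by unadjusted p, besides the members; 1 gene that this rule names is not reported here. The members and lists were chosen with earlier results of these data known. Figures used matplotlib 3.10.9.

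The same results were recomputed with a replicate block, with each library left out, under 3 scalings (the same total, median-of-ratios, quantiles), with array weights, a robust fit or no trend in limma, with pseudocounts of 0.1 or 0.5, and with either no filter or a mean FPKM of 5.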

Additional observations from a re-analysis of the deposited data

How the results depend on the processing

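None of the 8 antioxidant genes and none of the wider pathway genes passed under the 17 alternatives run. Over all tested genes 23 passed, against 6 with no filter, 38 with array weights, 10 after quantile normalization, 9 after median-of-ratios scaling and 4 to 21 when 1 library was left out. At an unadjusted p under 0.05 in limma, the count among the 8 genes was 1 in the main fit and 0 to 2 over the alternatives. The median log2 fold change of the 8 genes was −0.04, and −0.102 to 0.063 when 1 library was left out, the highest without low altitude library 3. SOD1 changed sign with a common total (0.049), as did TXN2 (0.025) and, with array weights, TXN2 again (0.002). With 1 library left out, PRDX3 ran from −0.197 to 0.113, SOD1 from −0.231 to 0.086 and TXN2 from −0.124 to 0.028, changing sign in 2, 3 and 2 of 6 fits; the cause was not tested. CAT, PRDX1, GPX4, NQO1 and NFE2L2 kept their sign in each alternative, although with 1 library left out NQO1 ran from 0.05 to 0.45, PRDX1 from −0.36 to −0.11, GPX4 from −0.35 to −0.15 and CAT from 0.32 to 0.69. With a replicate block made from the library numbers 19 genes passed, 0 of them antioxidant members. Same-numbered libraries correlated at −0.02, 0.10 and −0.14 in their deviations from group means, and of the low altitude libraries none, of the high altitude libraries only library 2, correlated best with its own number, so the numbers were not taken as pairs. FPKM without counts limits the precision that can be stated for low genes.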
